A study of Mus musculus with 45 samples.

Results

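The open chromatin regions (OCRs) that responded first to the loss of SOX2 were sought by comparing mouse embryonic stem cells after 0.5 h of depletion with untreated cells of the same line. The comparison rests on 4 libraries of 45 samples in the series, namely replicates 1 and 2 of the 0.5 h group and replicates 1 and 2 of the untreated group (NT), chosen by the labelled genotype and time. All of them are E14 cells of the genotype SOX2-FKBP, in which the SOX2 protein carries an FKBP tag that the small molecule dTAG-13 directs to proteasomal degradation, and all were grown on gelatin in serum-free medium with LIF, the MEK inhibitor PD0325901 and the GSK3-β inhibitor CHIR99021. The 0.5 h cells received 500 nM dTAG-13 for 0.5 h before harvest, and the NT cells, labelled 0 h, received DMSO. By the labels DMSO was added together with the latest dTAG-13 treatment, while the methods of the study say that both were added in parallel. The tagged line consists of picked homozygous clones, the study also used an independent clone, and the sources do not say whether the replicates come from different clones or separate cultures, so that p-values measure the spread between these libraries, which may be technical. Accessibility was measured by ATACseq, in which the Tn5 transposase cuts and tags open DNA, so that more fragments fall into a peak the more open it is. The libraries do not measure the SOX2 protein, and its depletion could not be checked in them.

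SOX2 is a transcription factor of the HMG box family that binds a short sequence in the minor groove and can do so on nucleosomal DNA, a property called pioneer activity. In embryonic stem cells it binds many enhancers next to OCT4, a POU factor that recognises an octamer sequence, and with OCT4 and NANOG it belongs to the core of the pluripotency network. Enhancers mostly lie in introns and between genes, and the distance to the nearest gene start does not show which gene they act on. In the following, every peak is therefore named after the protein-coding gene with the nearest transcript start in GENCODE vM21, as a label only.

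The sequences of 4 peaks are shown with the searched letters marked, as a description of the sequence only. They are 2 of the peaks with the largest falls, a peak with joint SOX-POU letters and a peak that fell without any of the searched letters. Each is the plus strand of GRCm38 (mm10), 200 bases around the summit of the peak, which follows the first 100 bases, and capitals mark the SOX letters CATTGT or CTTTGT, the octamer letters ATGCNAAT and the SOX-POU letters TGTNATGCA on either strand.
Gm45716 (chr11:90214301-90214500): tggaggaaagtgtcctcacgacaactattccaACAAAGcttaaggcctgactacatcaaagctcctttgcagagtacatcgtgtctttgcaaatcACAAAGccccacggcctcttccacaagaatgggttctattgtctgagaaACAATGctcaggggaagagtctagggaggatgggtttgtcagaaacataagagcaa
Il7 (chr3:7579544-7579743): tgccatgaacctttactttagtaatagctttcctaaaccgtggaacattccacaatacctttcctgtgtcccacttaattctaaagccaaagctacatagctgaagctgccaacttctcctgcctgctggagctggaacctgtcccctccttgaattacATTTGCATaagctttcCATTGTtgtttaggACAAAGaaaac
Sox9 (chr11:112870730-112870929): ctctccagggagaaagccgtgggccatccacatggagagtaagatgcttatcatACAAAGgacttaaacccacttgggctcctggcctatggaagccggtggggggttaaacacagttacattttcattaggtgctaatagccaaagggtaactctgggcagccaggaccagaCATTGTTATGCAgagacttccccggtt
Klf2 (chr8:72316233-72316432): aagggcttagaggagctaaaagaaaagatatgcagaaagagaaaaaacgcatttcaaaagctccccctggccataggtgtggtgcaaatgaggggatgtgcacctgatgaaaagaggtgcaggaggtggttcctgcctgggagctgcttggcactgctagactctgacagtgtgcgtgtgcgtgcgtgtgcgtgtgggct
The Gm45716 peak lies in an intron of an annotated gene and has 3 SOX matches, of which the second starts at base 96 and covers the summit. In the Il7 peak, in an intron, an octamer match at bases 160 to 167 is followed by 2 SOX matches that end at base 195. The Sox9 peak, between genes, has a SOX match at bases 174 to 179 that runs into a SOX-POU match at bases 177 to 185, and a further SOX match at bases 55 to 60. In the Klf2 peak, which lies between genes 2.7 kb upstream of the start of Klf2, no searched SOX, octamer or SOX-POU letters were found in this window.

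After 0.5 h, accessibility was lower at 5041 of the 160432 peaks tested and higher at 254 (edgeR quasi-likelihood test, Benjamini-Hochberg adjusted p under 0.05). That is 3.14% of the peaks tested lost and 0.158% gained, and losses made up 95.2% of all calls. Lost and gained stand for peaks that passed this test with a lower or a higher level. Levels are normalized counts, that is counts scaled by TMM to a common library size. Lost peaks had a median log2 fold change of -1.23 (-1.28 in replicate 1 and -1.05 in replicate 2), against -0.01 over all peaks tested. The median lost peak kept 43.4% of its NT level, 3511 lost peaks (69.6%) kept at most 50% and 304 (6.03%) at most 25%, and only 4 of the 5041 kept at most 10%. At each lost peak both 0.5 h libraries were below both NT libraries, which was also so at 22.7% of all peaks tested. A lower count in a bulk sample can come from fewer cells with an open site or from fewer insertions in each cell, which cannot be told apart.

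The number of calls depended on the libraries and on the test more than the direction did. Without 0.5 h replicate 1 the lost peaks numbered 577 and the gained peaks 8, without 0.5 h replicate 2 there were 4130 and 119, without NT replicate 1 there were 2574 and 89, and without NT replicate 2 there were 2595 and 41. The counts in peaks were 10531404 and 6479369 for NT replicates 1 and 2 and 9829196 and 5664738 for 0.5 h replicates 1 and 2, so replicate 2 was the shallower library in both groups. A replicate block gave 8073 lost and 1120 gained peaks, including all 5041 and all 254. DESeq2 called 1466 lost and 11 gained, all of them also called by edgeR. With a filter of at least 10 counts in every library 2980 lost and 148 gained peaks were called among 98187. On the 4 libraries alone 6948 lost and 925 gained peaks were called. Of the 60 peaks named by rule below, all kept their direction with the block, with DESeq2 and without any one library. All 60 passed with the block and 42 with DESeq2 (2 had no adjusted p there), and 46, 47, 21 and 57 passed without NT replicate 2, NT replicate 1, 0.5 h replicate 1 and 0.5 h replicate 2.

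Promoters of embryonic stem cell markers were open in both groups. Over the 7 of 8 markers with a promoter peak the summed level per kb was 1410 to 1446 in NT and 1328 to 1371 at 0.5 h, and Pou5f1 had no peak within 500 bp of its annotated start. The summed levels were 340 to 342 and 327 to 340 for primitive endoderm markers (5 of 6 with a peak), 238 to 251 and 229 to 259 for trophectoderm (5 of 5), 275 to 290 and 256 to 272 for neural markers (3 of 5) and 78.4 to 93.8 and 68.9 to 112 for fibroblast markers (3 of 6). A promoter can be open in cells that do not express the gene. The share of counts on the mitochondrial genome was 2.36% to 3.38% in the 4 libraries.

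Among lost peaks whose NT mean reached 50 normalized counts, the 10 largest falls were not at promoters and left between 7.13% and 15.1% of the NT level. The largest was at an intergenic peak 431 kb from the start of Tmem47 on the X chromosome, with 46.6 and 66.4 normalized counts in the NT libraries and 3.48 and 4.58 in the 0.5 h libraries (log2 fold change -3.78, SE 0.46, adjusted p = 2.17e-06 by edgeR's quasi-likelihood test). The groups were far apart at this peak. At the Gm45716 peak shown above, the NT libraries had 69.5 and 95.4 and the 0.5 h libraries 6.96 and 10.7 (log2 fold change -3.26, SE 0.33, adjusted p = 2.96e-07 by edgeR). The Il7 peak, named after an interleukin that supports lymphocytes, had 67.0 and 71.9 in NT and 7.83 and 10.7 at 0.5 h (log2 fold change -2.94, SE 0.33, adjusted p = 8.73e-07 by edgeR). At both peaks the highest 0.5 h library was far below the lowest NT library. The intronic peak near Ust, a sulfotransferase of glycosaminoglycan synthesis, fell from 83.9 and 78.8 to 9.57 and 10.7, and the intergenic peak near Cntn5, a neural adhesion molecule, from 83.1 and 91.2 to 11.3 and 12.2. Their replicates lay close together in both groups.

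The remaining 5 were named after Gm10696, Tenm3, Anks1b, Etaa1 and Plcb1, with log2 fold changes from -3.03 to -2.81. At Anks1b the 0.5 h libraries differed, with 5.22 in replicate 1 and 18.3 in replicate 2, and DESeq2 did not call the peak (adjusted p = 0.056). Plcb1, a phospholipase C, had 42.4 and 82.9 in NT and 5.22 and 13.7 at 0.5 h, and without 0.5 h replicate 1 it no longer passed (adjusted p = 0.062 by edgeR). The other 9 peaks passed with any one library left out. Of the 10 windows of 200 bp, 6 held a SOX match and 4 did not (those near Gm10696, Ust, Etaa1 and Plcb1).

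**Figure D1:**
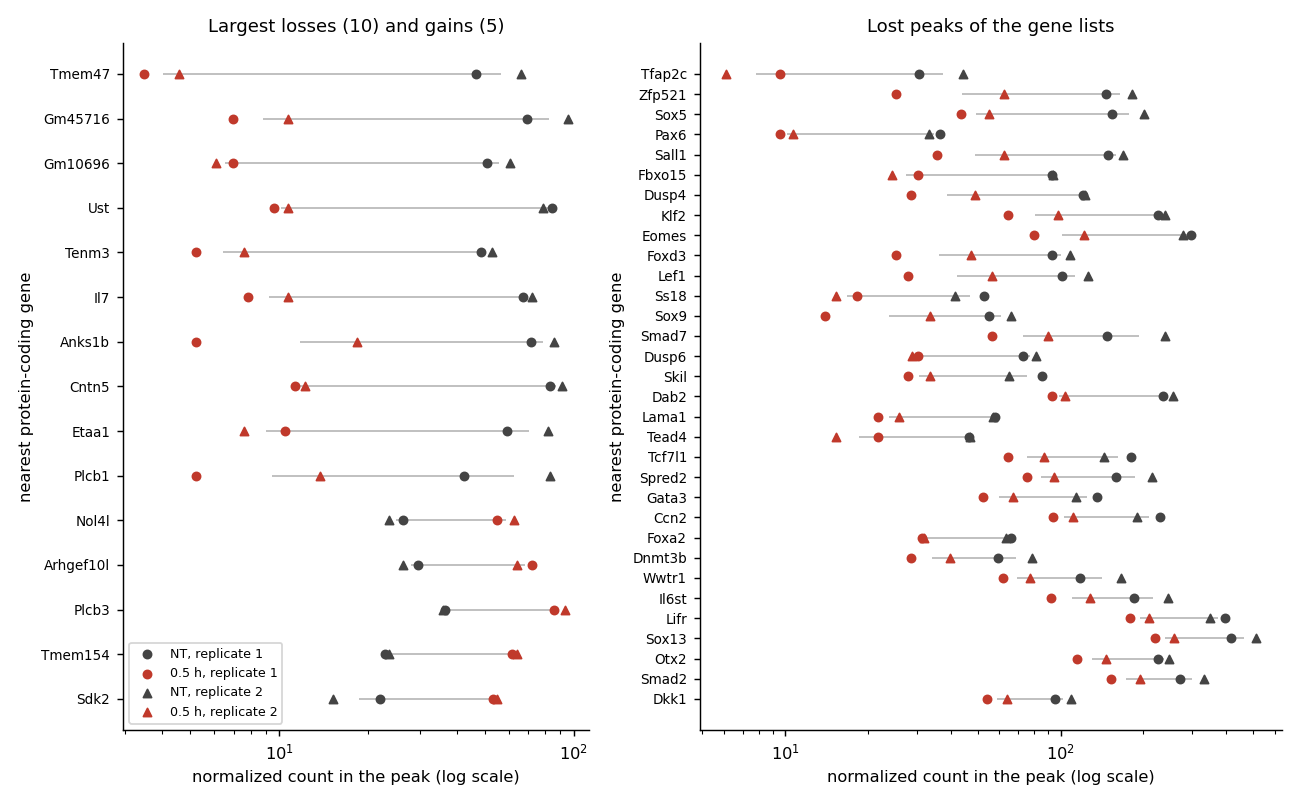
Normalized count in each of the 4 libraries (log scale on the x axis) for the 10 largest losses and 5 largest gains among peaks that averaged 50 or more in NT or at 0.5 h (left) and for the lost peaks named from the gene lists (right), one peak per row, named after the nearest protein-coding gene. Grey symbols are NT and red symbols 0.5 h, circles are replicate 1 and triangles replicate 2, and a line joins the group means. Red symbols lie left of both grey symbols at each loss and right of them at each gain, as at every peak called lost or gained. The largest fall, near Tmem47, leaves 7.13% of the NT level.

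The lost peaks were distal. By the position of the summit, 2542 (50.4%) lay between genes, 2277 (45.2%) in introns, 184 (3.65%) in exons and 36 (0.714%) at promoters, defined as within 500 bp of a protein-coding start. The corresponding shares of all peaks tested were 34.7%, 46.5%, 9.0% and 9.79%. Put the other way, 4.57% of intergenic peaks, 3.05% of intronic peaks, 1.27% of exonic peaks and 0.229% of promoter peaks were lost, against 3.14% of all peaks. These are counts without a test, since peaks of one library are not replicates. The median NT level was 126 normalized counts within 500 bp of a start and 21.9 to 33.9 in the bins farther away, and its part in these shares was not tested. When promoters were taken as within 1000 bp of a start of any gene type, 272 lost peaks (5.40%) fell in that class and 0.947% of its peaks were lost.

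The median distance from a lost peak to the nearest protein-coding start was 40485 bp (quartiles 13575.5 and 130037 bp), against 18889 bp for all peaks tested. The share of peaks lost was 2.54% between 0.5 and 5 kb, 2.45% between 5 and 20 kb, 3.28% between 20 and 100 kb, 6.22% between 100 and 500 kb and 13.5% beyond 500 kb. Beyond 500 kb, 294 of 2175 peaks were lost, and the median NT level there was 21.9 normalized counts, the lowest of the 6 bins. More than 100 kb from any protein-coding start lay 30.0% of the lost peaks and 13.6% of all peaks. Of the lost peaks 48.5% lay upstream of the nearest start, against 44.0% of all. Lost peaks were also wider than all peaks tested, with a median of 947 bp against 711 bp, and had a lower GC content, 45.4% against 50%. Among peaks that reached a mean of 50 in NT or at 0.5 h, this order of widths was not seen. There the median was 914 bp at a log2 fold change of -2 or below, 1202 bp between -0.5 and 0.5 and 940.5 bp above 0.5. The part of the starting level in the width was not tested.

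**Figure D2:**
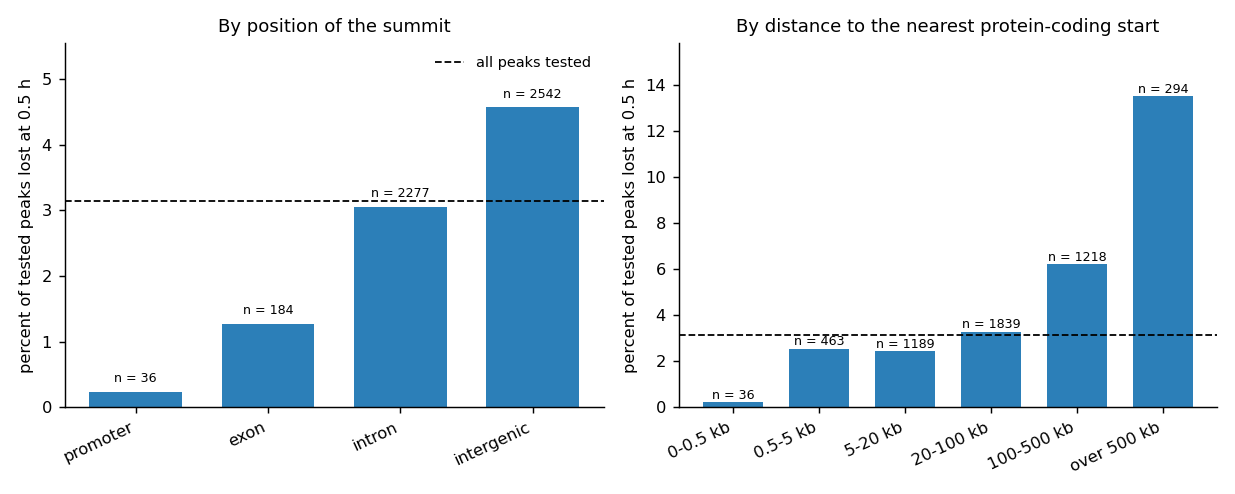
Percent of the tested peaks that were lost at 0.5 h (y axes) by the position of the summit (left) and by its distance to the nearest protein-coding start (right). Bars start at 0, the number of lost peaks is written above each, and the dashed line is 3.14%, the share over all peaks tested. The share is 0.229% at promoters and 13.5% beyond 500 kb.

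The 36 promoters that were lost are exceptions to this pattern, and the 5 with the largest falls, again with an NT mean of 50 or more, were those of Ang2, Plekhh1, Hdac9, Slc6a6 and Etl4. At Slc6a6, which encodes a taurine transporter, the peak at chr6:91700736-91701910 had 318 and 326 normalized counts in NT and 134 and 163 at 0.5 h (log2 fold change -1.13, SE 0.18, adjusted p = 8.83e-05 by edgeR). Plekhh1 had 198 and 199 in NT and 88.8 and 85.4 at 0.5 h (log2 fold change -1.18, SE 0.21, adjusted p = 0.000308 by edgeR). The replicates of both promoters were close together and the groups far apart. Hdac9, a class IIa histone deacetylase, had 71.2 and 59.4 in NT and 29.6 and 30.5 at 0.5 h, and Ang2, a ribonuclease of the angiogenin family, 61.9 and 62.2 against 27.8 and 25.9. All 5 promoters kept between 43.3% and 47.4% of the NT level and held 1 SOX match. Plekhh1 passed with any one library left out, while without 0.5 h replicate 1 the adjusted p was 0.188 at Ang2, 0.206 at Hdac9, 0.0583 at Slc6a6 and 0.39 at Etl4. Ang2 and Hdac9 also missed the threshold without NT replicate 1 (adjusted p = 0.0786 and 0.155) and Etl4 without NT replicate 2 (0.068), all by edgeR. DESeq2 did not call Ang2, Hdac9 or Etl4 (adjusted p = 0.215, 0.151 and 0.109).

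Lost peaks started from a high level. Their median NT level was 76.8 normalized counts, against 27.5 for all peaks tested, and per kb of peak 84.0 against 41.6. In 10 equal groups by NT level per kb, the share lost was 0.0125% in the lowest group, 1.31% in group 5, 6.18% in group 8, 8.43% in group 9 and 8.55% in the highest. The NT libraries enter both the level and the call, and the part of counting depth in this order was not tested. When the level was taken from the NT libraries of the NANOG-FKBP line, which are not part of the comparison, the share was 0.150% in the lowest and 9.85% in the highest group. When it was taken as the mean per kb over all 12 SOX2-FKBP libraries, which holds the lowered levels of the later times, the order turned, with 4.44% in the lowest and 1.00% in the highest group. By the same mean not divided by peak width, the share was 0.848% in the lowest group, 4.71% in group 8 and 1.38% in the highest. Among lost peaks the median log2 fold change was -1.45 in group 5 by NT level and -1.02 in the highest. At peaks with few counts only large falls could be called, and over all peaks tested in these groups the medians were -0.04 and -0.05.

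The 3 lost peaks with the highest NT level per kb lay near Slc45a4, Gm10767 and Glo1. They had 569, 491 and 462 normalized counts per kb in NT and kept 57.8%, 46.5% and 58.7% at 0.5 h. At Gm10767 the 2 NT libraries had 478 and 503 normalized counts and the 0.5 h libraries 184 and 271 (log2 fold change -1.13, SE 0.18, adjusted p = 7.12e-05 by edgeR). At each of the 3 peaks replicate 2 was the higher of the 0.5 h libraries, and without 0.5 h replicate 1 the adjusted p by edgeR was 0.557, 0.0832 and 0.644. Without NT replicate 1 it was 0.184 at Slc45a4 and 0.0731 at Glo1, and without NT replicate 2 it was 0.0976 at Glo1. DESeq2 did not call Slc45a4 or Glo1 (adjusted p = 0.129 and 0.079).

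**Figure D3:**
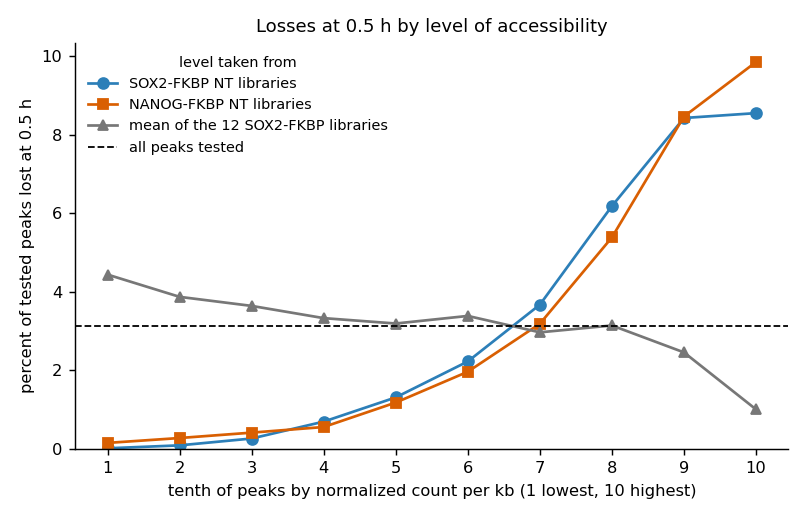
Percent of the tested peaks lost at 0.5 h (y axis) in 10 equal groups of peaks ordered by normalized count per kb (x axis), with the level taken from the SOX2-FKBP NT libraries, from the NANOG-FKBP NT libraries or from the mean of the 12 SOX2-FKBP libraries. With both NT levels the share rises to 8.55% and 9.85% in the highest group, while with the 12-library mean it falls to 1.00%. The dashed line is the 3.14% of all peaks tested.

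SOX letters were common in the lost peaks and lay close to their summits. In 200 bp around the summit, 57.9% of 5039 lost peaks with a reference sequence held CATTGT or CTTTGT on either strand, against 24.8% of the 160298 peaks tested with a sequence and 9.45% of the 254 gained peaks. Among peaks with 40 to 50% GC the shares were 57.6% of lost and 30.1% of all peaks, and among those with 50 to 60% GC they were 58.2% and 20.6%. Of peaks without a match 1.76% were lost, and of peaks with 1, 2, 3 and 4 matches 5.74%, 14.4%, 23.5% and 27.4%, and for 5 matches 5 of 10 peaks were lost. The nearest match lay at a median of 28.5 bp from the summit in lost peaks and 42.0 bp in all peaks with a match. Within 25 bp of the summit lay the nearest match of 45.1% of the lost peaks with a match and of 32.7% of all such peaks.

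The share with SOX letters followed the size of the fall. Among peaks that reached a mean of 50 in NT or at 0.5 h, 74.2% of 163 peaks with a log2 fold change of -2 or below held a SOX match. The share was 66.7% of 547 peaks between -2 and -1.5, 59.5% of 1572 between -1.5 and -1, 48.4% of 4110 between -1 and -0.5, 20.1% of 44018 between -0.5 and 0.5 and 12.5% of 1594 above 0.5. The median GC content of these groups also differed, with 43.4% at -2 or below, 52.2% between -0.5 and 0.5 and 51.7% above 0.5. Its part in the order of the shares was not tested. The SOX-POU letters TGTNATGCA were rarer. They were held by 2.82% of lost and 0.749% of all peaks, and 142 of 1201 peaks with them (11.8%) were lost. The letters TGT of this pattern can also belong to a SOX match and the letters ATGCA to an octamer match. The octamer letters ATGCNAAT were in 10.7% of lost and 3.85% of all peaks, and 5.57% of peaks with an octamer and no SOX match were lost. CTCF letters (CNAGNGGGC, part of the site of the insulator protein CTCF) were in 1.49% of lost and 5.37% of all peaks, and 0.871% of peaks with them were lost. A match is a description of the sequence, and SOX2 binding was not analysed here.

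**Figure D4:**
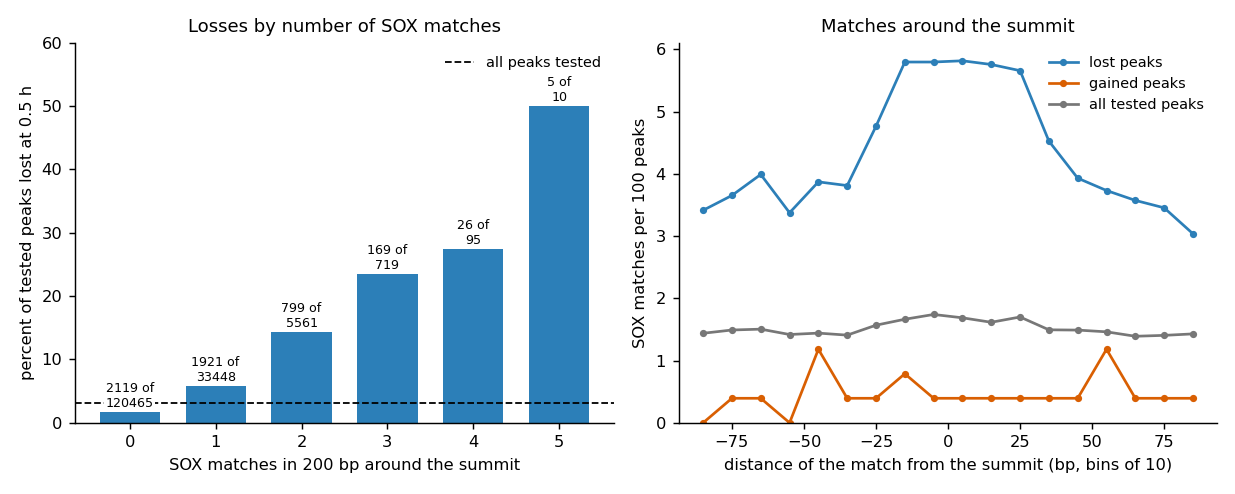
Left: percent of the tested peaks lost at 0.5 h (y axis, bars from 0) by the number of SOX matches in 200 bp around the summit (x axis), with the lost and tested peaks above each bar and the 3.14% of all peaks as a dashed line. Right: SOX matches per 100 peaks (y axis) by distance from the summit in bins of 10 bp (x axis) for lost, gained and all tested peaks. The share lost goes from 1.76% without a match to 27.4% with 4 matches, and the matches of lost peaks are densest at the summit.

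Lost peaks were spread over the genome. They were nearest to 3383 of the 18700 genes that had a tested peak, of which 2410 had 1 lost peak and 71 had 5 or more. The peak nearest to a lost peak was itself lost in 8.95% of cases, against 3.21% over all peaks tested, at a median distance of 4528 and 3383 bp. Per chromosome the share lost ran from 2.37% on chromosome 11 to 4.49% on the X chromosome. The most lost peaks were nearest to Tbl1xr1, a subunit of a corepressor complex (10 of 107 tested peaks), Utrn, the dystrophin relative utrophin (9 of 70), Auts2 (8 of 95), Cdh2, N-cadherin (8 of 40) and Fhit (8 of 30), and 2 more genes, Ptprg and Rapgef5, also had 8. At the lost Auts2 peak of smallest p, which holds 4 SOX matches, the NT libraries had 157 and 159 and the 0.5 h libraries 37.4 and 42.7 (log2 fold change -1.99, SE 0.25, adjusted p = 3.16e-06 by edgeR). At Fhit the values were 52.6 and 67.7 against 11.3 and 18.3, and at Tbl1xr1 92.4 and 92.6 against 23.5 and 35.1. All 3 peaks kept between 24.6% and 31.7% of the NT level. Leaving out 0.5 h replicate 1 gave an adjusted p by edgeR of 0.297 at Utrn, 0.0759 at Cdh2 and 0.0595 at Fhit.

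Of the 766 tested peaks nearest to core and naive pluripotency factors 30 (3.92%) were lost and 0 gained, near the 3.14% of all peaks, and the median log2 fold change of the 766 was -0.09. Klf2, a Krüppel-like factor of the naive state, had 2 of 13 peaks lost, and the one shown above had 226 and 241 in NT and 64.4 and 97.6 at 0.5 h (log2 fold change -1.57, SE 0.21, adjusted p = 1.01e-05 by edgeR). The strongest call of this list was an intergenic peak 113 kb upstream of Sall1, a zinc finger factor, with 149 and 169 in NT and 35.7 and 62.5 at 0.5 h (log2 fold change -1.76, SE 0.23, adjusted p = 6.27e-06 by edgeR). An intergenic peak 538 kb from Fbxo15, a known stem cell marker, fell from 93.3 and 94.0 to 30.5 and 24.4. All 3 passed with any one library left out and kept between 29.3% and 34.7% of the NT level.

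In all, lost peaks of this list lay near Sall1 with 6 of 76 tested, Sox2 itself with 4 of 84, Klf4 and Prdm14 with 3 each, Klf5 and Fbxo15 with 2 each, and Pou5f1, Nr5a2, Sall4, Tbx3, Tcl1, Tfcp2l1, Zfp42 and Dppa5a with 1 each. The lowest log2 fold change over all tested peaks near a gene, called or not, was -2.15 near Nr5a2, an orphan nuclear receptor. It was -1.71 near Prdm14, -1.62 near Sox2 and -0.87 near Pou5f1, which encodes OCT4. Lost peaks lay near 15 of the 25 listed genes, where 3383 of all 18700 genes had one. The number of tested peaks differs between genes. The peaks near a gene in this count include peaks far away from it.

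Genes of the FGF-ERK pathway had 15 of 326 peaks lost (4.60%, against 3.14% of all peaks), at 6 of 12 genes, and 0 gained. The cells grew with a MEK inhibitor, which blocks this pathway between RAF and ERK. The lost peaks named by p were nearest to Dusp4 and Dusp6, phosphatases of MAP kinases, and Spred2, an inhibitor of RAF activation. The list holds further inhibitors of the pathway, of which Spred1 and Spry4 had 0 lost peaks among 9 and 20 tested. The lowest log2 fold change of the list, called or not, was -2.10 near the receptor gene Fgfr1. The Dusp4 peak, 79.4 kb upstream, had 120 and 123 in NT and 28.7 and 48.8 at 0.5 h (log2 fold change -1.73, SE 0.25, adjusted p = 2.21e-05 by edgeR). The narrow Dusp6 peak of 256 bp in an intron had 72.9 and 81.6 against 30.5 and 29.0. It lay 2.23 kb past the protein-coding start and 182 bp from another annotated start of Dusp6. The Spred2 peak, 177 kb upstream of Spred2 and 2300 bp from the start of Gm12028, had 159 and 214 against 75.7 and 94.6. Both 0.5 h libraries were below both NT libraries at all 3, as they were at each lost peak. Without 0.5 h replicate 1 the adjusted p by edgeR was 0.0513, 0.0548 and 0.177 in that order, and without NT replicate 2 it was 0.056 at Spred2. Dusp6 and Spred2 had 4 lost peaks each, Dusp4 3, Fgfr1 2, and Fgf4 and Spry2 1 each.

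Among genes of LIF and BMP response, 5 of 224 peaks were lost (2.23%, below the 3.14% of all peaks) and 1 gained. They lay at Lifr and Il6st, the 2 subunits of the LIF receptor. The Lifr peak, in an intron of an annotated gene, had 397 and 350 in NT and 178 and 210 at 0.5 h (log2 fold change -0.96, SE 0.17, adjusted p = 0.000293 by edgeR), and the Il6st peak, 1.42 kb upstream, 186 and 246 against 92.2 and 128. Each kept more than 50% of the NT level, 52.1% and 51.0%. Without 0.5 h replicate 1 the adjusted p was 0.0997 and 0.262, and without NT replicate 2 it was 0.0744 at Il6st (edgeR).

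Of the Nodal pathway 7 of 232 peaks were lost (3.02%, close to the 3.14% of all peaks) and 1 gained, the losses being near Smad7 (5), an inhibitory SMAD, Skil (1), a repressor of SMAD signalling, and Smad2 (1), a transducer. The Skil peak, which holds a SOX-POU match, had 85.6 and 65.0 in NT and 27.8 and 33.6 at 0.5 h. The Smad7 peak had 148 and 239 against 56.6 and 90. The Smad2 peak, 294 kb from the start of Smad2, had 271 and 332 against 153 and 194. At Smad7 replicate 2 was the higher library in both groups. DESeq2 did not call Smad7 (adjusted p = 0.178) or Skil (0.0688). Without 0.5 h replicate 1 the adjusted p by edgeR was 0.175, 0.188 and 0.319 at Smad7, Skil and Smad2. It was 0.117 at Skil without NT replicate 1 and 0.122 at Smad2 without NT replicate 2.

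Of the Wnt list 5 of 278 peaks were lost (1.8%) and 1 gained, and of the Hippo-YAP list 5 of 253 (1.98%) and 2 gained, where 3.14% of all peaks were lost. Near Lef1, a factor through which β-catenin acts, a peak 8.07 kb upstream had 101 and 126 in NT and 27.8 and 56.4 at 0.5 h (log2 fold change -1.51, SE 0.25, adjusted p = 0.000167 by edgeR). Tcf7l1, a repressor of the same family, had 180 and 144 against 64.4 and 86.9, and Dkk1, a secreted Wnt inhibitor, 95.8 and 109 against 54.0 and 64.1. Dkk1 was the weakest of the 3, with 57.6% left. Near Ccn2, a target of YAP, a peak 4.13 kb upstream had 230 and 189 against 94.0 and 111 (log2 fold change -1.06, SE 0.18, adjusted p = 0.000266 by edgeR). Wwtr1, which encodes the coactivator TAZ, had 118 and 166 against 61.8 and 77.8, and Tead4, a DNA-binding partner of YAP, 46.6 and 47.0 against 21.8 and 15.3. None of these 6 calls held without 0.5 h replicate 1, with adjusted p from 0.0934 at Ccn2 to 0.489 at Dkk1. By edgeR, Dkk1 also missed the threshold without NT replicate 1 (0.0788) or NT replicate 2 (0.197), Wwtr1 without NT replicate 2 (0.0911), and Tead4 without NT replicate 1 (0.0771) or 0.5 h replicate 2 (0.0754). DESeq2 did not call Dkk1 or Tead4 (adjusted p = 0.264 and 0.137).

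Lists of other lineages and of the later epiblast, neural genes apart, had shares near the 3.14% of all peaks. Of the formative epiblast list 6 of 143 peaks were lost (4.2%) and 0 gained, near Foxd3 (2), Otx2 (2), Dnmt3b, a de novo DNA methyltransferase, and Lin28b. The Foxd3 peak had 93.3 and 108 in NT and 25.2 and 47.3 at 0.5 h, the Otx2 peak 226 and 249 against 115 and 146, and the Dnmt3b peak 59.3 and 78.8 against 28.7 and 39.7. Otx2 and Dnmt3b kept 55.0% and 49.5%, and Foxd3 36.1%. Of primitive endoderm genes 6 of 169 peaks (3.55%) and of trophectoderm genes 7 of 174 (4.02%) were lost, with 0 and 2 gained. A peak 404 kb from Dab2, an endocytic adaptor of endoderm, had 236 and 257 against 93.1 and 104 (log2 fold change -1.33, SE 0.18, adjusted p = 1.15e-05 by edgeR), and one 71.9 kb upstream of Eomes, a T-box factor of trophoblast, and 195 bp from the start of Platr11, which is not among the protein-coding genes used for names, 297 and 279 against 80.1 and 122 (log2 fold change -1.56, SE 0.20, adjusted p = 4.21e-06 by edgeR). Those at Dab2 and Eomes passed with any one library left out. Leaving out 0.5 h replicate 1 gave an adjusted p by edgeR of 0.226 at Foxd3, 0.311 at Otx2 and 0.505 at Dnmt3b, and without NT replicate 2 it was 0.0614 and 0.203 at the latter 2. DESeq2 did not call Dnmt3b (adjusted p = 0.22).

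Weaker calls of these lists were a peak named after Gata3 with 136 and 113 against 52.2 and 67.1 and one after Tfap2c with 30.5 and 44.2 against 9.57 and 6.10. Others were named after Foxa2, with 66.1 and 63.6 against 31.3 and 32.0, and Lama1, a laminin chain, with 57.7 and 56.7 against 21.8 and 25.9. The peaks lay 432, 160, 139 and 1.35 kb from the starts of Gata3, Tfap2c, Foxa2 and Lama1, in that order. Each missed the threshold without 0.5 h replicate 1 (edgeR adjusted p from 0.0946 to 0.33). The Foxa2 call also needed each other library (adjusted p from 0.0703 to 0.168 without one of them), Gata3 needed NT replicate 1 (0.0543 without it) and Tfap2c NT replicate 2 (0.0573 without it). DESeq2 did not call Foxa2 or Lama1 (adjusted p = 0.254 and 0.0646) and gave no adjusted p at Tfap2c.

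Of the other Sox genes 14 of 322 peaks were lost (4.35%, against 3.14% of all peaks) and 1 gained, near Sox5, Sox9 and Sox13 (4 each), Sox6 and Sox11 (1 each). Sox5 and Sox13 are SoxD genes, and Sox9 is a SoxE gene. The Sox5 peak, 245 kb upstream with 3 SOX matches, had 154 and 200 in NT and 43.5 and 54.9 at 0.5 h (log2 fold change -1.86, SE 0.23, adjusted p = 2.31e-06 by edgeR). At Sox13 the values were 415 and 513 against 221 and 258, and at the Sox9 peak shown above 55.1 and 66.4 against 13.9 and 33.6. The Sox5 peak kept 27.7%, the others 51.6% and 39.1%. Sox5 passed with any one library left out, and without 0.5 h replicate 1 the adjusted p was 0.0689 at Sox13 and 0.51 at Sox9 (edgeR). With DESeq2 Sox9 was not called (adjusted p = 0.09).

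Of the neural list 7 of 73 peaks were lost (9.59%, against 3.14% of all peaks) and 0 gained, all near 2 of the 7 genes, Zfp521 (5) and Pax6 (2). The Zfp521 peak, in an intron with 3 SOX matches, had 146 and 182 in NT and 25.2 and 62.5 at 0.5 h (log2 fold change -2.02, SE 0.27, adjusted p = 6.71e-06 by edgeR), and the small Pax6 peak 36.5 and 33.2 against 9.57 and 10.7. The Zfp521 call held with any one library left out, while that at Pax6 had an adjusted p of 0.227 without 0.5 h replicate 1 and 0.0839 without NT replicate 1 (edgeR). Genes of the BAF remodelling complex had 3 of 105 peaks lost (2.86%, close to the 3.14% of all peaks) and 1 gained, with the losses near Ss18, a subunit of the complex. Its peak had 52.6 and 41.5 against 18.3 and 15.3, and missed the threshold without 0.5 h replicate 1 (adjusted p = 0.12) or NT replicate 1 (0.131, both by edgeR) and with DESeq2 (0.0868). DESeq2 gave no adjusted p at Pax6. No peak was lost or gained among the 73 promoter peaks of ribosomal protein genes, whose median log2 fold change was 0.03, or among the 52 peaks of fibroblast genes.

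Gains were few. DESeq2 called only 11 of the 254 gained peaks, and with any one library left out some called gains were other peaks. The traits given here are therefore those of the edgeR fit of all 12 libraries alone. The 254 gained peaks had a median log2 fold change of 1.00 and a median NT level of 28.7 normalized counts, close to the 27.5 of all peaks tested. They lay at a median of 15710.5 bp from a protein-coding start, 53.9% of them in introns, 37.8% between genes and 1.57% (4) at promoters, and had a median GC content of 51.9%. KLF letters (GGGNGTG) were in 34.3% of gained and 23.5% of all peaks, TEAD letters (GGAATG) in 25.2% and 13.7%, and ESRRB letters (TCAAGGTCA) in 6.69% and 2.03%. In lost peaks the same shares were 20.2%, 15.3% and 1.65%. KLF, TEAD and ESRRB proteins are active in embryonic stem cells, and their binding was not analysed here.

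Among gained peaks that averaged 50 or more at 0.5 h, the largest gain was at an intergenic peak near Sdk2, a neural adhesion molecule, with 22.0 and 15.2 in NT and 53.1 and 54.9 at 0.5 h (log2 fold change 1.47, SE 0.30, adjusted p = 0.00214 by edgeR). The intronic peak near Tmem154 rose from 22.9 and 23.5 to 61.8 and 64.1, and that 2.05 kb upstream of Plcb3, a phospholipase C, from 36.5 and 35.9 to 85.3 and 93.0 (log2 fold change 1.29, SE 0.24, adjusted p = 0.000692 by edgeR). At both peaks the libraries of a group were close together, and both calls held with any one library left out. Arhgef10l had 29.7 and 26.3 against 72.2 and 64.1, and Nol4l 26.3 and 23.5 against 54.8 and 62.5. Without 0.5 h replicate 1 the adjusted p by edgeR was 0.0884 at Sdk2, 0.207 at Arhgef10l and 0.114 at Nol4l. Without NT replicate 2 it was 0.0546, 0.0607 and 0.0861, without NT replicate 1 it was 0.0653 at Arhgef10l and 0.0963 at Nol4l, and without 0.5 h replicate 2 it was 0.0581 at Nol4l. With DESeq2 Nol4l was not called (adjusted p = 0.0972).

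From 0.5 h to 1 h no further change passed the test. edgeR called 0 peaks lost (0.0%) and 0 gained (0.0%) at 1 h against 0.5 h, with a lowest adjusted p of 0.139, and DESeq2 also called 0 and 0. At an unadjusted p under 0.05 there were 3836 lower and 2550 higher peaks with edgeR and 988 and 432 with DESeq2. With the replicate block 61 were lost and 3 gained. With 1 library left out the counts were 1 lost peak without 0.5 h replicate 1, 5 lost and 1 gained without 1 h replicate 2, and 0 in the other cases. The 5041 peaks lost at 0.5 h had a median log2 fold change of -0.28 from 0.5 h to 1 h, and 77.0% of them were lower at 1 h, against 50% of all peaks tested, whose median was 0.00. A call of 0 does not show that these peaks stayed where they were at 0.5 h.

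The peaks lost at 0.5 h were lower still at the later times. Their median level, as percent of NT, was 43.4 after 0.5 h, then 35.7, 30.6, 25.8 and 19.5 after 1, 2, 6 and 24 h, all relative to the same 2 NT libraries, which also entered the choice of the peaks. The medians of both replicates were 38.8% and 48.2% at 0.5 h and 18.7% and 20.6% at 24 h. As single examples, the Gm45716 peak stood at 10.7%, 11.8%, 10.4%, 8.08% and 7.35% at the 5 times, and the Sox5 peak at 27.7%, 20.4%, 19.3%, 10.1% and 4.47%. The Tmem47 peak stood at 7.13%, 25.5%, 5.41%, 5.11% and 3.31%, its 1 h libraries differing with 6.85 and 21.9 normalized counts. At 0.5, 1 and 24 h the Otx2 peak held 55.0%, 40.5% and 58.4% and the Plekhh1 promoter 43.9%, 40.9% and 58.8%. The gained peaks had medians of 203%, 192%, 192%, 176% and 148%, and the medians of all peaks tested stayed between 99.4% and 103%. No test was made of these series, since they share the NT libraries.

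**Figure D5:**
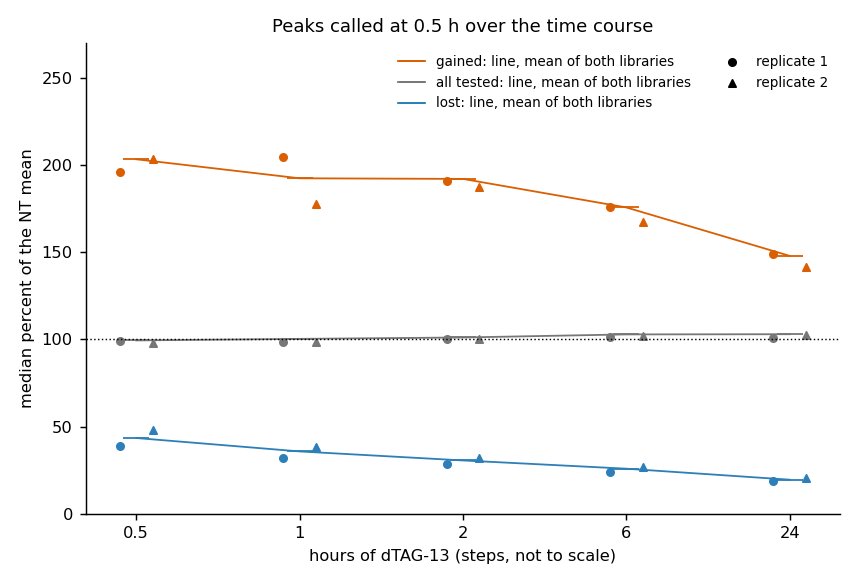
Median level as percent of the mean of the 2 NT libraries (y axis) at 0.5, 1, 2, 6 and 24 h of dTAG-13 (x axis, in steps) for the 5041 peaks lost and the 254 gained at 0.5 h and for all peaks tested. Lines join the medians of the mean of both libraries at a time, circles are replicate 1 and triangles replicate 2, and the dotted line is 100%. The lost peaks go from 43.4% to 19.5% and the gained peaks from 203% to 148%.

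Libraries of 2 other lines, in which OCT4 or NANOG is the tagged protein, gave values of the same peaks that share no library with the comparison. The times differ, since the earliest treated time there is 2 h, so the values stand side by side and were not compared. OCT4-FKBP cells (2 libraries at 2 h and 2 NT, made from another parental embryonic stem cell line by the methods of the study) and NANOG-FKBP cells (3 libraries at 2 h and 2 NT) received 500 nM dTAG-13 as well. After 2 h of OCT4 depletion 3.48% of the peaks tested in that line were lost. Of the 5041 peaks, 4745 could be tested there and 2163 (45.6%) were lost, which is 38.8% of the 5572 peaks lost in that line. Of the 4745, 63 were gained, against 1470 of all 160166 peaks tested there. The median log2 fold change of the 4745 was -1.02 (-1.04 and -0.97 in the 2 libraries at 2 h), against 0.01 for all peaks. Of lost peaks with SOX-POU letters 89 of 128 (69.5%) were also lost with OCT4, with a median of -1.57, and of those with SOX letters but neither octamer nor SOX-POU letters 961 of 2441 (39.4%), with a median of -0.85. Of lost peaks without SOX letters 979 of 1982 (49.4%) were, with a median of -1.11.

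The following peaks were chosen after their values were seen, to show the range. The Gm45716 peak had a log2 fold change of 0.00 after 2 h of OCT4 depletion (adjusted p = 0.999 by edgeR), the Sox5 peak 0.25 (adjusted p = 0.852), the Sox13 peak 0.18 (0.898) and the Auts2 peak -0.26 (0.843), each of them with 3 or 4 SOX matches. The Zfp521 peak, also with 3 SOX matches, had -2.63 (adjusted p = 2.93e-05 by edgeR). The Il7 peak had -1.69 (adjusted p = 0.00169), the Sall1 peak -2.29 (0.000145), the Dab2 peak -2.84 (2.51e-05) and the Klf2 peak -0.98 (0.0212). The promoter of Plekhh1 was gained there, with 1.22 (0.00853 by edgeR). After 2 h of NANOG depletion 0.779% of peaks were lost, and 319 of the 5004 that could be tested (6.37%), which is 28.1% of the 1137 losses in that line. Their median was -0.26, with -0.33, -0.11 and -0.35 in the 3 libraries at 2 h, of which the second held 1817191 counts, the lowest of the 11 libraries of that line. With the replicate block 613 of them were lost in NANOG-FKBP cells, where 1.63% of all peaks tested were then lost, against 0.779% without it. The Etaa1 peak fell there with a log2 fold change of -2.30 (adjusted p = 0.000228) and the Gata3 peak with -2.32 (0.000225), while the Klf2, Sall1, Il7 and Gm45716 peaks had values between -0.21 and 0.33 that missed the threshold (edgeR).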

How the data were processed

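ATACseq libraries were aligned by the authors with BWA 0.7.17-r1188, filtered with SAMtools 1.10 and freed of duplicates with Picard 2.12.0, and peaks were called with MACS2 on the merged time series. The deposited table holds raw counts, which the authors made by counting fragments in 184964 peaks of mm10, and no shift of Tn5 ends is stated. The deposited peak list also holds fold enrichment and −log10 p and q values, which the authors' peak caller gave and which were used for no comparison between samples. The peaks, named genes and gene lists were chosen with earlier results of these data known.

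Of 45 samples, 31 had a column and 14 were not analysed here. The filter kept 160432 peaks in which over 2 of the 12 libraries of the line exceeded 10 counts. They were fitted with the quasi-likelihood test of edgeR 4.0.16 (R 4.3.3) on all 12 libraries, which share one estimate of the spread, with TMM scaling, Benjamini-Hochberg adjusted p-values over the whole table and a threshold of 0.05. The SE of a log2 fold change is its absolute value over the root of F, an approximation. The OCT4-FKBP and NANOG-FKBP lines were fitted in the same way, each on its own libraries. Alternatives were DESeq2 1.42.0, other scalings and filters, a replicate block and each library left out. Counts per library limit the precision at weak peaks, and counting error is only a part of the spread.

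The replicate numbers were taken to pair the samples only in the replicate block. Calls and p-values given without that name come from fits with time as the only term. Over 45906 peaks that averaged 50 or more, the deviations of same-numbered libraries correlated at 0.121 to 0.510 in all 15 pairs of times (0.174 for NT and 0.5 h), while over all peaks tested the correlations were 0.0789 to 0.224 (0.0904 for NT and 0.5 h), below 0.1 for that pair.

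Named peaks were the 10 largest losses and 5 largest gains that averaged 50 or more in NT or at 0.5 h, the 3 losses with the highest NT level per kb, the 5 largest promoter losses with that mean, the lost peak of smallest p for up to 3 genes of each list, and likewise for the 5 genes with the most lost peaks. For the largest losses and gains, both 0.5 h libraries also had to lie on the same side of both NT libraries, which every called peak met. Matches were searched in 200 bp around the summit. The scripts were tested on simulated data.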

Additional observations from a re-analysis of the deposited data

How the results depend on the processing

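The 5041 lost and 254 gained peaks moved by more than 1.5 times with DESeq2 (1466 and 11), with at least 10 counts in every library (2980 and 148), with the replicate block (8073 and 1120), with the block and GC content offsets together (7653 and 951) and, for the gains, on the 4 libraries alone (925). The lost peaks on the 4 libraries alone numbered 6948, within that limit. With each library left out in turn the lost peaks ranged from 577 to 4130 and the gained peaks from 8 to 119. At 1 h against 0.5 h, where 0 and 0 peaks were called, the block gave 61 and 3, the block with GC content offsets 23 and 2, and leaving out a library 0 to 5 and 0 to 1. In NANOG-FKBP cells the block raised 319 to 613, while the share lost over all peaks tested there rose from 0.779% to 1.63%. The replicate block changed no call of the 60 named peaks. The share of lost peaks at promoters was 5.40% with starts of all genes and 1000 bp. The share lost in the highest and lowest of 10 groups by level was 9.85% and 0.150% by the NANOG-FKBP NT libraries and 1.00% and 4.44% by the mean of the 12 libraries, which holds the lowered times. SOX matches were in 39.7% of lost peaks in 100 bp and 89.0% in the whole peak, windows that differ in length by construction. By the mean of the 12 libraries per kb the order of the groups by level turned. By the same mean not divided by peak width the share was 0.848% in the lowest group, 4.71% in group 8 and 1.38% in the highest. No named peak changed the sign of its log2 fold change under the alternatives run, 32 of the summary values stayed within their limits and 31 moved, and of the values of named peaks 333 kept their side of the threshold and 85 did not. Apart from these constructions, the cause was not tested. At peaks with few counts only large differences could be called.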
